A study of Capra hircus with 29 samples.

Results

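The genes described here are 10 enzymes of glycolysis, HK1, HK2, GPI, PFKL, PFKM, PFKP, ALDOA, PGK1, ENO1 and PKM, in oocytes of Ji'ning grey goats. They were found by gene symbol in a table of 21343 genes, where 9 of the 10 had a row, each a single row, and PFKL had none. Levels are FPKM, a count of sequenced fragments scaled to transcript length and to the size of the library, so that a value is corrected for gene length and library size and genes can be compared. Polyadenylated RNA was sequenced from 29 samples in 6 groups, named HLO, LLO, HMO, LMO, HSO and LSO. The leading letter stands for the high or low fertility population, the middle letter for a large, medium or small follicle, and O for oocyte. The labels define high fertility as more than 3 kids per birth and low fertility as fewer than 2. The study's methods differ, with at least 3 per litter for high and at most 2 for low fertility. There were 5 samples in each group and 4 in HSO, which holds the samples numbered 1, 3, 4 and 5. Each sample held a few oocytes of one population and follicle size. By the study's methods the oocytes of a follicle size were put together, as is stated for the high fertility population, and then divided into the samples. The samples of a high fertility group are therefore portions of 1 pool and not separate animals. The same is assumed for the low fertility groups, for which pooling is not stated. A p-value then measures the spread between portions, not between goats. The labels name no drug or hormone and no age, and both populations are of the same breed.

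Glycolysis turns glucose into pyruvate in the cytosol. Hexokinase traps glucose as glucose 6-phosphate, phosphofructokinase commits the sugar to the pathway, aldolase splits it, and phosphoglycerate kinase and pyruvate kinase make ATP from the products. Mammalian oocytes are known to use little glucose through this route and to take up pyruvate made by the surrounding cumulus cells, whose glycolysis is active. Low phosphofructokinase activity is part of the textbook account of the oocyte.

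The libraries carried most of the oocyte markers listed. The summed FPKM of 15 oocyte markers was 644 to 9227 per sample, with GDF9 and ZP3 above 0.5 FPKM in all 29. ZP3 had the highest mean of the 15, at 1406 FPKM. Of the 15, 13 had a mean above 0.5 FPKM. NOBOX (mean 0.379) passed 0.5 FPKM in 8 samples, NLRP5 (0.303) in 5 and DAZL (1.40) in 21. Of 18 granulosa and cumulus markers, 16 had a row and their sum was 7.11 to 56.4 FPKM. Of these 16, 5 had a mean above 0.5 FPKM and 7 were above 0.5 in no sample. STAR, the carrier of cholesterol into mitochondria, was at 18.8 ± 8.17 FPKM (SD, n = 29) and had the highest mean of them. HAS2 was above 0.5 FPKM in all 29 samples (mean 1.45), GJA1 in 19, INHBA in 10 and TNFAIP6 in 4, where it reached 18.2 FPKM. AMH was listed at 0 in all 29 samples, LHCGR in 27 and FSHR in 17. Leukocyte markers, of which 5 of 6 had a row, summed to at most 0.672 FPKM. Of 5 endothelial and erythroid markers 3 had a row, and these summed to at most 1.61 FPKM. The erythroid markers HBB and HBA1 had no row, so erythroid RNA was not measured by this list. The FPKM of all genes summed to between 222697 (LMO sample 2) and 490048. No count of reads per gene is in the table, so counting error is unknown. FPKM are shares of a library, so less of a transcript per oocyte and fewer oocytes that carry it cannot be told apart.

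Most of the enzymes were expressed, but at low to moderate levels, and PFKM and PFKP were close to absent from the libraries. PFKL had no row of that name, so its level is not known. Above 0.5 FPKM in all 29 samples were GPI, ALDOA and PKM. ENO1 passed that level in 26 samples, HK1 in 25, PGK1 in 24 and HK2 in 8, and PFKM and PFKP in 0. The mean over all samples was highest for PKM, at 11.2 ± 4.27 FPKM (SD, n = 29), followed by ALDOA at 8.35 ± 6.38, ENO1 at 7.70 ± 9.49, GPI at 5.40 ± 3.64 and PGK1 at 3.14 ± 3.59 FPKM. HK1 was at 0.884 ± 0.386, HK2 at 0.400 ± 0.430, PFKM at 0.157 ± 0.112 and PFKP at 0.0106 ± 0.0299 FPKM. In this order, HK1 and HK2 differed by more than the larger of their SDs, as did PFKM and PFKP, and the other neighbours did not. PKM, the pyruvate kinase of most tissues, stood above 88.8% of the genes in the table and PFKM above 50.2%.

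**Figure D1:**
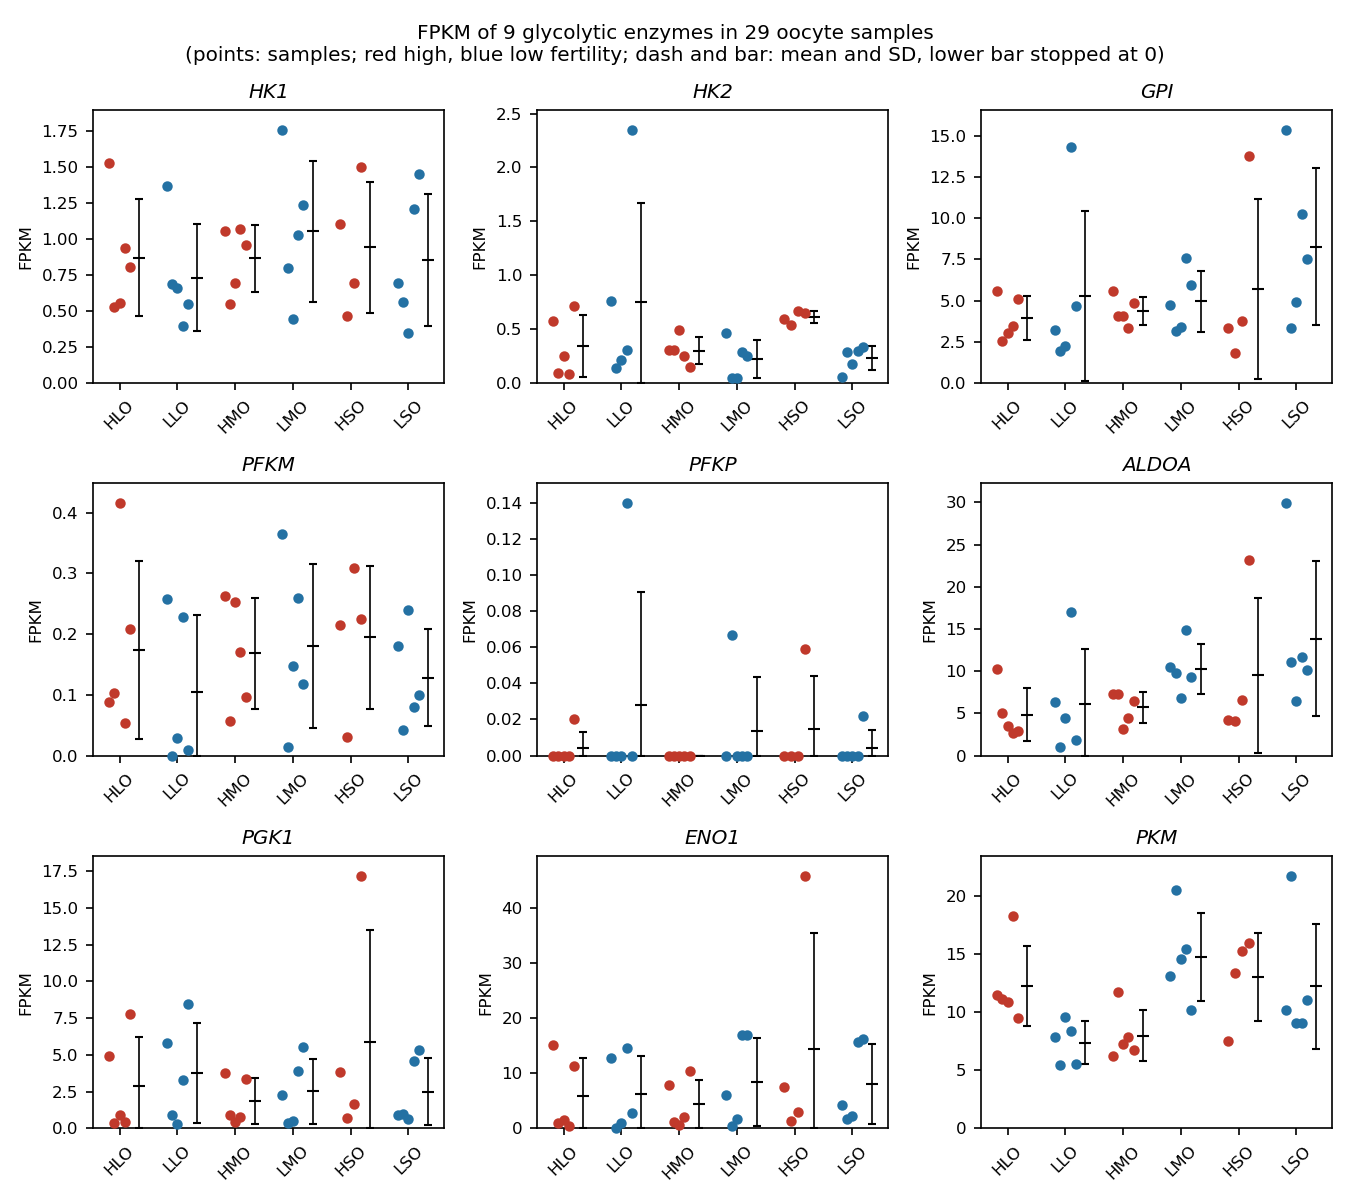
FPKM of the 9 enzymes with a row (vertical axes, linear, each from 0) in the 6 groups; a point is a sample, red for high and blue for low fertility, and the dash with its bar is the group mean and SD. PKM lies between 5.42 and 21.7 FPKM throughout, while ENO1 runs from 0.0954 to 45.8 FPKM and PFKP is at 0 in 23 samples.

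The spread between samples differed by gene. PKM varied least, with a coefficient of variation of 38.1% and a highest value 4.0 times the lowest. HK1 followed with 43.7% and a range of 5.07 times. ENO1, the general enolase, varied most of the genes found in every sample, with a coefficient of variation of 123% and a highest value 480 times the lowest, and PGK1 reached 115% and 53.5 times. When the 6 groups were put in order of their mean for each of the 9 genes, all 45 steps between neighbouring groups were smaller than the larger SD of the pair.

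At the entry to the pathway, HK1 and HK2 were not the leading hexokinases. HK1, the hexokinase bound to mitochondria in most tissues, ranged from 0.346 FPKM in LSO sample 3 to 1.76 FPKM in LMO sample 1. HK2, the insulin-responsive form of muscle and fat, ranged from 0.0422 FPKM in LMO sample 2 to 2.34 FPKM in LLO sample 5, with a median of 0.295. HKDC1, a hexokinase-like protein and not among the 10 enzymes, was above HK1, HK2 and HK3 in 29 of 29 samples, at 4.87 ± 3.02 FPKM (SD, n = 29). It made up 78.9% of the summed FPKM of these 4 genes, against 14.3% for HK1 and 6.48% for HK2. HK3 had a mean of 0.0189 FPKM.

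GPI, which turns glucose 6-phosphate into fructose 6-phosphate, ranged from 1.82 FPKM in HSO sample 3 to 15.4 FPKM in LSO sample 1. Its median was 4.08 FPKM.

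The phosphofructokinase step, taken without PFKL, had the lowest level of the pathway, with PFKM and PFKP together at 0.168 ± 0.117 FPKM (SD, n = 29). PFKM, the muscle form, was listed at 0 in LLO sample 2 and was highest, at 0.415 FPKM, in HLO sample 3. PFKP, the platelet form, was listed at 0 in 23 samples, between 0.0201 and 0.140 FPKM in 5, and at a value that rounds to 0 in HLO sample 4. The liver form had no row named PFKL. A row of the table described as a liver-type phosphofructokinase, LOC102187810, was listed at 0 in all 29 samples, and it was not counted as PFKL. An entry of 0 in a table without counts can be a failed estimate as well as a missing transcript. No phosphofructokinase with a row reached 0.5 FPKM in any sample, so none entered the tests. The enzymes that make and remove the activator of this step were also low: PFKFB2 was at 0.312 FPKM, PFKFB4 at 0.113 and PFKFB1 at 0.00171 on average, and PFKFB3 was listed at 0 throughout. TIGAR, which removes the activator, was at 2.33 ± 1.70 FPKM (SD, n = 29).

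ALDOA, the aldolase of muscle and most tissues, ranged from 1.06 FPKM in LLO sample 2 to 29.9 FPKM in LSO sample 1. ALDOC, the brain form of aldolase, was at 10.4 ± 6.80 FPKM (SD, n = 29) and was above ALDOA in 23 samples and below it in 6. Of the summed FPKM of both genes ALDOA made up 44.6% by mean and between 10.7% and 80.2% in single samples.

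PGK1, which makes ATP from bisphosphoglycerate, was the only phosphoglycerate kinase detected, as PGK2, the testis form, was listed at 0 in all 29 samples. It ranged from 0.321 FPKM in LLO sample 3 to 17.1 FPKM in HSO sample 5, with a median of 1.68. The steps on either side were above or near it: GAPDH, which makes the substrate of PGK1, was at 157 ± 184 FPKM (SD, n = 29), and the phosphoglycerate mutases PGAM1 and PGAM2 summed to 5.04 ± 2.86 FPKM. BPGM, which turns the substrate of PGK1 into a bisphosphoglycerate outside the main route, was at 576 ± 322 FPKM and stood above 99.4% of the genes in the table. GAPDH had 6 rows, TPI1 and PGAM1 had 2 each, and the row of highest mean was used.

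ENO1 made up 82.0% of the summed enolase FPKM by mean. It ranged from 0.0954 FPKM in LLO sample 2 to 45.8 FPKM in HSO sample 5, with a median of 2.98. It was the largest enolase in 22 samples, and ENO4, a form known from sperm, was the largest in the other 7. ENO2 was listed at 0 throughout, and ENO3 had a mean of 0.194 FPKM.

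PKM was the largest pyruvate kinase in 29 of 29 samples, with PKLR, the liver and red cell form, at 0.0110 FPKM on average. The 3 lactate dehydrogenases, which follow, summed to 371 ± 307 FPKM (SD, n = 29). Across the pathway the mean of the summed isozymes given here was therefore lowest at phosphofructokinase (0.168 FPKM, without PFKL). Next were phosphoglycerate kinase (3.14) and mutase (5.04), and lactate dehydrogenase was highest.

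**Figure D2:**
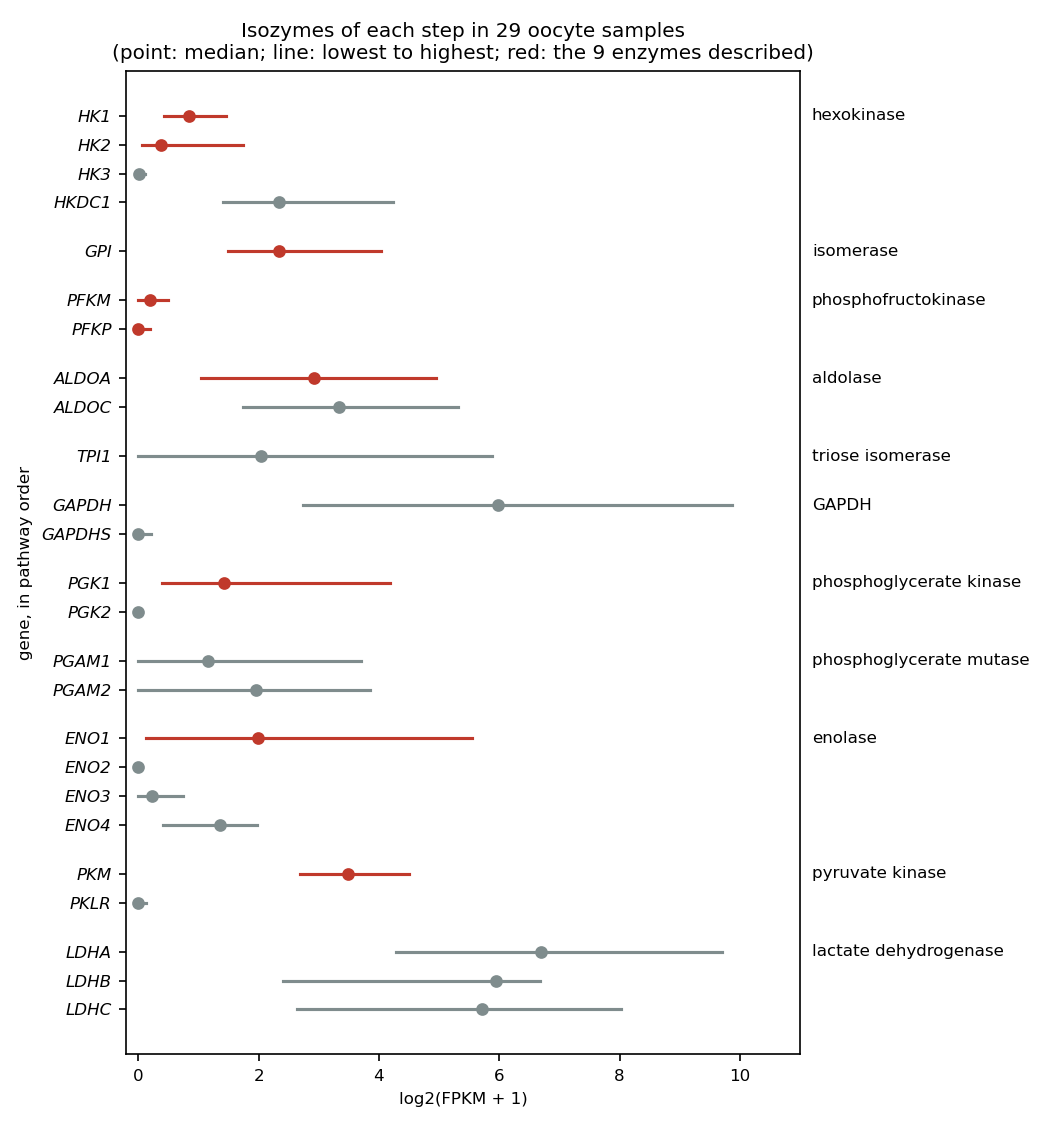
Levels of isozymes by step in pathway order, as log2(FPKM + 1) on the horizontal axis; a point is the median of 29 samples, a line runs from the lowest to the highest, and red marks the 9 enzymes described. PFKM and PFKP sit at the left edge, with no sample above 0.415 FPKM, and HKDC1 lies to the right of HK1 and HK2.

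The high and low fertility populations were compared at each follicle size by limma's moderated test on log2(FPKM + 1). A gene was tested when 4 or more samples of the comparison exceeded 0.5 FPKM, with Benjamini-Hochberg adjustment over all genes tested. In large follicles 7 of the enzymes were tested and 0 passed an adjusted p of 0.05, where 0% of 8328 genes did. At an unadjusted p of 0.05 it was 0 of 7, against 4.14% of all genes. In medium follicles 6 were tested and 0 passed after adjustment (0.0715% of 8390 genes did), with 2 of 6 at the unadjusted level against 8.67%. In small follicles it was 0 of 7 after adjustment (0.0119% of 8376 genes) and 1 of 7 before it (4.41%). That 1 was HK2, which entered the test through the HSO samples alone. With all follicle sizes in 1 fit, and follicle size as a covariate, 0 of 7 passed after adjustment (0.0103% of 9692 genes) and 0 of 7 before it (9.99%).

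PKM had the lowest p of the enzymes in medium follicles. In HMO it was at 6.27, 11.8, 7.26, 7.87 and 6.74 FPKM in samples 1 to 5, and in LMO at 13.1, 20.5, 14.6, 15.5 and 10.2 FPKM. All LMO samples but sample 5 were above every HMO sample, and HMO sample 2 lay above LMO sample 5. The group means were 7.98 ± 2.2 and 14.8 ± 3.78 FPKM (SD, n = 5 each), and the difference, high minus low, was -0.81 on the log2(FPKM + 1) scale (SE 0.295, 95% interval -1.45 to -0.17, unadjusted p = 0.0170, limma adjusted p = 0.434).

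In large follicles the order of the groups for PKM was the opposite. HLO was at 11.5, 11.2, 10.9, 18.3 and 9.53 FPKM, and LLO at 7.87, 5.42, 9.62, 8.42 and 5.51 FPKM. HLO sample 5 was the only HLO sample below the highest LLO sample. The difference was 0.66 (SE 0.374, 95% interval -0.14 to 1.47, limma adjusted p = 0.828). In small follicles PKM was at 7.56, 13.4, 15.3 and 15.9 FPKM in HSO and at 10.2, 21.7, 9.09, 9.08 and 11.1 FPKM in LSO, with overlapping groups and a difference of 0.11 (SE 0.363).

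Whether the fertility difference itself depended on follicle size was tested by limma's F-test of the interaction over all 29 samples. PKM had an unadjusted p of 0.00396 and an adjusted p of 0.278. The unadjusted p lay between 0.00158 and 0.00943 when each sample was left out in turn. It was the 1 enzyme of 7 past the unadjusted level, where 7.89% of 9692 genes were, and 0 of 7 passed after adjustment, as did 0% of all genes. STAR moved with PKM across these groups. It was at 17.6 to 30.0 FPKM in HLO and 5.11 to 17.3 in LLO, at 8.54 to 15.6 in HMO and 19.8 to 39.0 in LMO, and at 12.5 to 26.2 in HSO and 4.32 to 28.1 in LSO. The sum of the granulosa and cumulus markers, of which 16 of 18 had a row, was 19.7 to 33.1 FPKM in HLO, 11.4 to 19.5 in LLO, 11.1 to 18.5 in HMO, 22.5 to 53.5 in LMO, 14.8 to 29.4 in HSO and 7.11 to 56.4 in LSO. Without STAR the medians of that sum were 2.70 to 6.31 FPKM in the 6 groups. Over the 29 samples PKM and STAR had a Spearman correlation of 0.76 and PKM and the sum without STAR one of -0.14, where the points share libraries. The part of the marker levels in the PKM result was not tested.

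ALDOA was the other enzyme past the unadjusted level in medium follicles. It was at 7.26, 7.29, 3.14, 4.49 and 6.44 FPKM in HMO and at 10.5, 9.73, 6.83, 14.9 and 9.32 FPKM in LMO. Only LMO sample 3 fell inside the HMO range. The means were 5.72 ± 1.84 and 10.3 ± 2.94 FPKM (SD, n = 5 each), and the difference was -0.76 (SE 0.311, 95% interval -1.43 to -0.08, unadjusted p = 0.0307, limma adjusted p = 0.532). In small follicles the difference for ALDOA was -0.66 (SE 0.543), and in large follicles 0.01 (SE 0.568), with wide overlap in both.

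All 6 enzymes tested in medium follicles had a difference below 0, with a median of -0.40 beside -0.07 over all genes. For GPI it was -0.11, for HK1 -0.11, for PGK1 -0.22 and for ENO1 -0.58, each with an interval across 0. The share of all genes with a difference below 0 was not computed, so the count of 6 cannot be set against it. The 6 differences also come from the same libraries and are not separate results. With sample weights estimated by limma, ALDOA (-1.02) and ENO1 (-1.98) passed the adjusted level, as did 1011 of the 8390 genes tested.

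HK2 was the 1 enzyme past the unadjusted level in small follicles. It was at 0.592, 0.537, 0.665 and 0.647 FPKM in HSO and at 0.0556, 0.282, 0.172, 0.295 and 0.332 FPKM in LSO. The groups did not overlap, and the HSO samples lay close together. The share of all genes whose groups did not overlap was not computed. For HK2 the difference was 0.40 (SE 0.129, 95% interval 0.11 to 0.68, unadjusted p = 0.0106, limma adjusted p = 0.880). All LSO samples were under 0.5 FPKM, so HK2 entered this test through the 4 HSO samples alone, and a gene that enters through the group where it is high is bound to differ there. All samples of both medium groups were under 0.5 FPKM, and HK2 was not tested in them. In large follicles HK2 had the opposite sign, -0.28 (SE 0.287), where LLO sample 5 alone reached 2.34 FPKM and the next LLO sample 0.760. The interaction test for HK2 had a limma adjusted p of 0.708.

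PGK1 and ENO1 showed no fertility difference beyond their spread. In small follicles ENO1 was at 7.61, 1.39, 2.98 and 45.8 FPKM in HSO and at 4.28, 1.72, 2.35, 15.8 and 16.2 FPKM in LSO. HSO sample 5 was far above all others, and the remaining HSO samples lay within the LSO range or just under it. The difference was 0.22 with all samples (SE 0.870) and -0.63 without HSO sample 5. For PGK1 it was 0.61 (SE 0.679) with that sample, which was at 17.1 FPKM, and -0.07 without it. For ENO1 the 95% intervals were -1.86 to 1.81 in large, -2.22 to 1.06 in medium and -1.69 to 2.14 in small follicles. For PGK1 they were -1.76 to 1.04, -1.28 to 0.84 and -0.89 to 2.10 in the same order, and all 6 included 0.

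**Figure D3:**
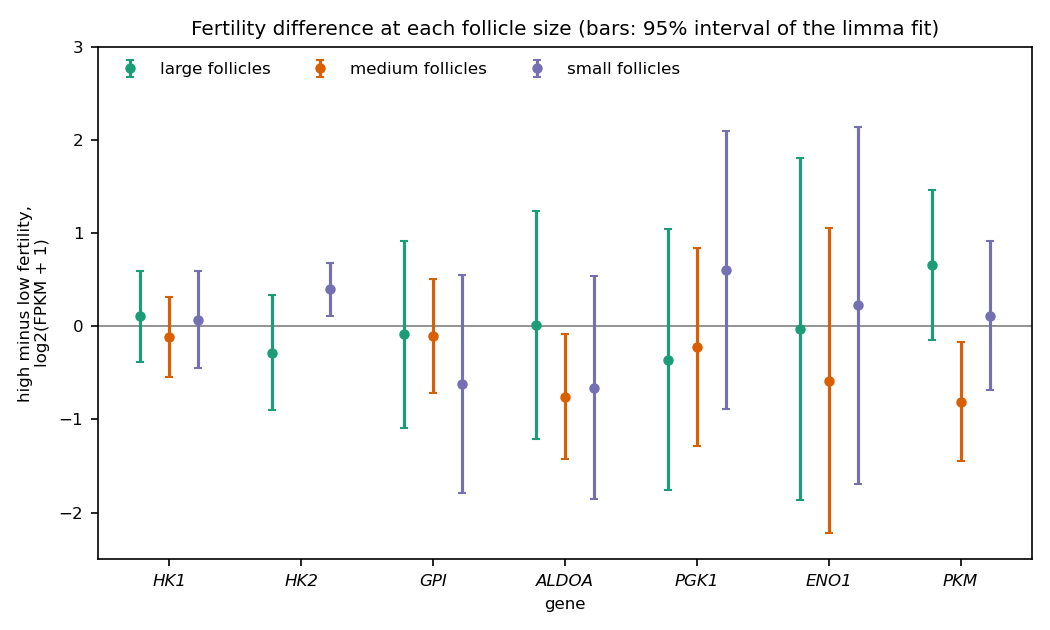
Difference between high and low fertility, as high minus low on the log2(FPKM + 1) scale, with bars for 95% intervals of the limma fit. Shown are the 7 enzymes tested in large and small follicles and the 6 tested in medium follicles, where HK2 was not tested. The intervals of PKM and ALDOA in medium follicles leave out 0 before adjustment. PKM lies at 0.66 in large and -0.81 in medium follicles. The interval of HK2 in small follicles also leaves out 0, but HK2 entered that test through the HSO samples alone.

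Between follicle sizes, ALDOA had a higher mean in small than in large follicles, without passing the adjusted test. It was at 5.50 ± 4.83 FPKM in large (SD, n = 10), 7.99 ± 3.32 in medium (n = 10) and 11.9 ± 8.89 in small follicles (n = 9). The ranges overlapped, from 1.06 to 17.1 FPKM in large, 3.14 to 14.9 in medium and 4.11 to 29.9 in small follicles. In limma's F-test over the 3 sizes, with the population as a covariate, ALDOA had an unadjusted p of 0.0263 and an adjusted p of 1.0. It was the 1 enzyme of 7 past the unadjusted level, where 1.66% of 9692 genes were, and 0 of 7 passed after adjustment, as did 0% of all genes. Large minus small was -0.99 (SE 0.354). The p of the F-test was 0.0745 without LLO sample 2, which had the lowest ALDOA of all. For GPI the means were 4.60 ± 3.63, 4.67 ± 1.39 and 7.12 ± 4.95 FPKM and for PKM 9.82 ± 3.67, 11.4 ± 4.62 and 12.6 ± 4.48 FPKM in large, medium and small follicles, within their SDs. HK1, HK2, PFKM, PGK1 and ENO1 had no order of the 3 sizes beyond their SDs either.

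The largest regular differences in the enzymes lay between samples of the same group and followed the number in the sample's name. What the number stands for is not given in the labels, and its use was chosen after the values had been seen. ENO1 was at 4.28 to 15.2 FPKM (median 7.76) in the 6 samples numbered 1, at 0.0954 to 1.72 (median 1.07) in the 5 numbered 2 and at 0.707 to 2.35 (median 1.49) in the 6 numbered 3. In the 6 numbered 4 it was at 0.452 to 16.9 FPKM (median 8.75), and in the 6 numbered 5 at 2.78 to 45.8 (median 13.8). Every sample numbered 2 or 3, whatever its population and follicle size, was below every sample numbered 1 or 5.

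PGK1 showed nearly the same arrangement. It had medians of 3.81, 0.900, 0.573, 2.49 and 6.67 FPKM in numbers 1 to 5, and numbers 2 and 3 reached 0.962 FPKM at most, where the lowest of numbers 1 and 5 was 0.936. HK1 had medians of 1.24, 0.565, 0.509, 0.981 and 1.10 FPKM and GPI of 5.13, 3.14, 3.23, 5.67 and 5.50 FPKM, with overlapping ranges. PKM did not share the arrangement, with medians of 9.03, 11.8, 10.3, 12.2 and 9.87 FPKM.

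In limma's F-test over the 5 numbers, with the 6 groups as a covariate, 4 of 7 enzymes passed after adjustment, where 50.5% of 9692 genes did, and the same count held before adjustment, where 58% did. The count of enzymes was near the share of all genes. Adjusted p was 5.13e-05 for PGK1, 0.000484 for ENO1, 0.0164 for HK1 and 0.0303 for GPI, and 0.193, 0.331 and 0.318 for HK2, ALDOA and PKM. With median-of-ratios scaling HK1 (unadjusted p = 0.493) and GPI (0.388) no longer passed, and PKM (0.00157) did. The pathway's other genes followed: LDHA was at 18.5 to 57.3 FPKM in numbers 2 and 3 and at 48.5 to 835 in numbers 1 and 5, and BPGM at 84.5 to 410 and at 135 to 1188. The summed oocyte markers were at 644 to 2821 FPKM in numbers 2 and 3, at 1309 to 9227 in numbers 1 and 5 and at 1438 to 5173 in number 4. The theca and stroma markers, of which 6 of 8 had a row, summed to 5.70 to 12.2, 5.32 to 43.4 and 7.12 to 20.9 FPKM in the same order. DCN was above 0.5 FPKM in 29 samples (mean 7.95), ACTA2 in 28 (5.92) and COL1A2 in 28 (1.73), while COL1A1 was at 0 in 27 samples and PDGFRA in 25. The granulosa and cumulus markers summed to 13.6 to 41.5, 7.11 to 56.4 and 11.4 to 32.6 FPKM. The part of these levels, or of a technical batch, in the pattern was not tested.

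**Figure D4:**
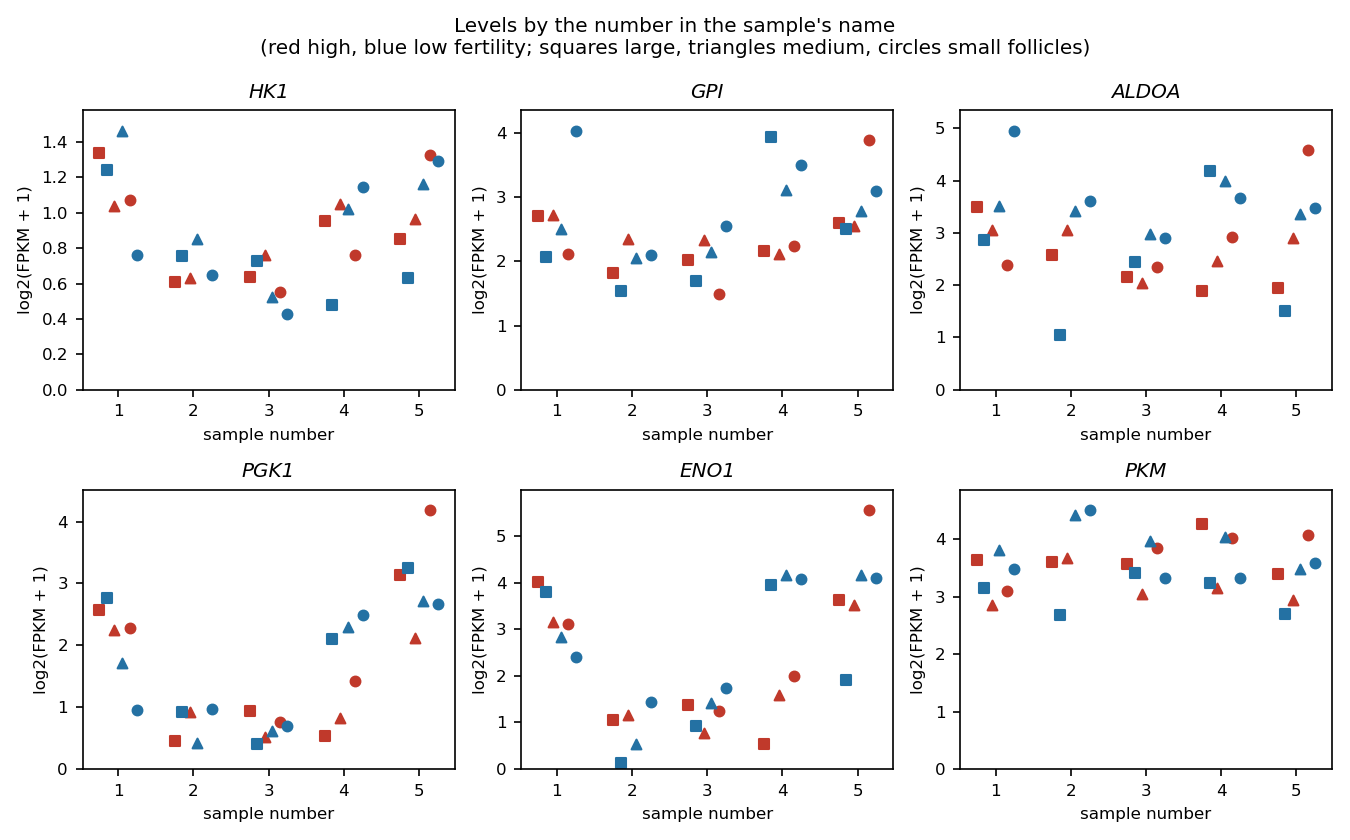
Levels of HK1, GPI, ALDOA, PGK1, ENO1 and PKM as log2(FPKM + 1) against the number in the sample's name; colours are the populations (red high, blue low) and shapes the follicle sizes (squares large, triangles medium, circles small). ENO1 and PGK1 are low in the 11 samples numbered 2 and 3, and the medians of PKM lie between 9.03 and 12.2 FPKM in the 5 numbers.

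The enzymes fell into those that varied together and those that did not. Over the 29 samples, which share library and scaling, ENO1 and PGK1 had a Spearman correlation of 0.86, ENO1 and GPI of 0.77, HK2 and PGK1 of 0.66 and GPI and ALDOA of 0.66. HK1 had 0.58 with ENO1 and 0.56 with PGK1. With each value taken relative to its group mean, ENO1 and PGK1 had 0.87 and GPI and ENO1 0.80. PKM had 0.41 with ALDOA and values from -0.19 to 0.02 with HK1, HK2, GPI, PFKM, PGK1 and ENO1. GPI and ENO1 had 0.84 and 0.83 with the sum of the oocyte markers, ALDOA and PGK1 0.69 each, HK1 0.55, HK2 0.31 and PKM 0.04. With the sum of the theca and stroma markers PGK1 had 0.87, HK2 and ENO1 0.71 each, HK1 0.53, GPI 0.37, ALDOA 0.08 and PKM -0.15. The part of these markers in the levels of the enzymes was not tested.

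**Figure D5:**
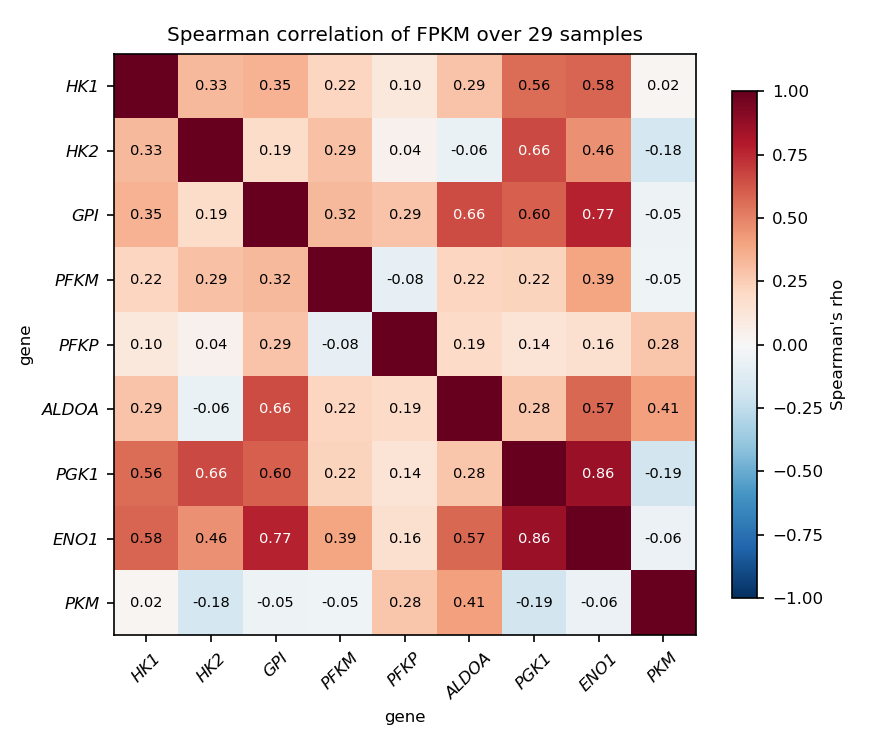
Spearman correlation of FPKM between the 9 enzymes over 29 samples, on a colour scale from -1 to 1 with the value in each cell. The highest values are those of ENO1 with PGK1 (0.86) and with GPI (0.77), and PKM has no value above 0.41.

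The genes most like the 3 enzymes found above 0.5 FPKM in every sample were taken by Spearman correlation over the 29 samples. They included PDIA6 for GPI (0.91), STXBP6 for ALDOA (0.84), and DET1 (0.88) and LOC108634540 (0.88) for PKM. LOC108634540 had 2 rows.

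The genes of highest level in the pathways around glycolysis set the enzymes in context. LDHA, with 3 rows of which the highest was used, was at 219 ± 215 FPKM and LDHC, the germ cell form, at 92.8 ± 79.0 (SD, n = 29). In the pentose phosphate pathway TALDO1, the transaldolase, was at 40.2 ± 27.4 FPKM and RPE, an epimerase with 3 rows, at 34.8 ± 24.2. GNPNAT1 and PGM3, of the hexosamine pathway, were at 16.8 ± 11.2 and 17.9 ± 7.46 FPKM, with means above those of all 9 enzymes. HIF1A, a regulator of glycolytic genes, was at 3.34 ± 2.06 FPKM, PGM1 and UGP2, of glycogen metabolism, were at 2.31 ± 2.18 and 1.38 ± 1.25, and FBP2 and G6PC3, of gluconeogenesis, at 0.801 ± 0.617 and 0.819 ± 1.03 FPKM.

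In the pathways around glycolysis 0 genes passed the adjusted level in the 6 comparisons of population and follicle size. Of the other glycolytic isozymes 10 of 17 were tested. The median difference of the 10 isozymes in medium follicles was -0.05, beside -0.07 for all genes.

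ENO4 was higher in the high fertility population with all sizes in 1 fit, by 0.36 (SE 0.126, limma adjusted p = 0.423), as was FBP2, a fructose bisphosphatase of gluconeogenesis, by 0.41 (SE 0.161, adjusted p = 0.436), and neither passed after adjustment. PGM3, a mutase of the hexosamine pathway, was lower in HMO than in LMO by a difference of -0.96 (SE 0.337, limma adjusted p = 0.395). HKDC1 went from 3.29 ± 1.70 FPKM in large to 4.86 ± 1.77 in medium and 6.64 ± 4.30 in small follicles, with an adjusted p of 1.0 in the F-test. TKTL1, of the pentose phosphate pathway, had an unadjusted p of 0.0345 there, and PGAM2, the muscle mutase, and PYGL, the liver glycogen phosphorylase, had unadjusted p of 0.0262 and 0.0163 in the interaction test. The lowest limma adjusted p of these was 0.455, for PYGL. PGM3 was the 1 of 5 hexosamine genes past the unadjusted level in medium follicles, where 8.67% of all genes were. ENO4 was the 1 of 10 isozymes past it over all sizes, and FBP2 the 1 of 2 gluconeogenesis genes. Of all genes 9.99% were past it over all sizes. Over all sizes the median difference was -0.01 for the isozymes, 0.02 for 2 glycolysis regulators, 0.05 for 7 pentose phosphate genes, 0.19 for the gluconeogenesis genes, -0.06 for 5 glycogen genes, -0.04 for the hexosamine genes and 0.25 for 9 genes of pyruvate and lactate use, beside -0.04 for all genes. In the test over sample numbers 8 of the 9 pyruvate and lactate genes, 6 of the 10 isozymes, 4 of the 7 pentose phosphate genes, 4 of the 5 hexosamine genes, 2 of the 5 glycogen genes, 2 of the 2 regulators and 1 of the 2 gluconeogenesis genes passed after adjustment, against 50.5% of all genes.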

How the data were processed

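RNA of 29 oocyte samples was analysed; the granulosa cell samples of the study were not analysed here. The authors sequenced polyadenylated RNA on an Illumina HiSeq instrument, kept uniquely mapped reads and discarded duplicates by picard. The deposited table gives FPKM, which the authors computed with Cufflinks on the Ensembl annotation. The aligner and genome build are not given in the sources used here. Column names gave the sample, and 1 column without a sample was not used. No 2 columns were identical. A symbol on more than 1 row was found for 3738 genes, none of them an enzyme described here, and 4171 genes were at 0 in all samples. Depth per sample is not in the table.

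The members and gene lists were chosen with earlier results of these data known, and the test over sample numbers after the values were seen. Named genes are the 10 enzymes, up to 3 genes of the lists with the lowest unadjusted p under 0.05 in each comparison, the 2 of highest mean in each list, and the 2 genes most like each enzyme above 0.5 FPKM in all samples. Of genes past the adjusted level only over sample numbers, counts are given. Other isozymes, PFKFB genes and markers were named after their values were seen. Some genes that this rule picks, and some isozymes, are not reported here. The lists hold other glycolytic isozymes, glycolysis regulators, and genes of the pentose phosphate pathway, gluconeogenesis, glycogen, the hexosamine pathway and pyruvate and lactate use, and markers of oocytes and 4 other classes of cell.

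Groups were compared by limma's moderated tests with a trend, on log2(FPKM + 1). Genes entered when 4 or more samples of the fit exceeded 0.5 FPKM, with Benjamini-Hochberg adjustment. This scale understates changes of low genes. The fits were tested on simulated data. Alternatives were a pseudocount of 0.1, no filter, median-of-ratios scaling, sample weights, a replicate block, 1 fit over all samples, and each sample left out. R 4.3.3 with limma 3.58.1 and Python 3.11.15 with pandas 2.3.3, numpy 2.4.6 and matplotlib 3.10.9 were used.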

Additional observations from a re-analysis of the deposited data

Results flagged for a closer look

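In groups of 4 or 5 samples, a sample was picked out where it lay far from all others of its group by Dixon's criterion. Chance meets it in about 1 group in 20 where values are normally distributed. The FPKM were not put on a log scale and are skewed for several enzymes, so that rate may not hold here. Of 54 groups of values (9 enzymes in 6 groups), 13 held such a sample. In 5 of these, all of PFKP, the other samples were at or next to 0, so that any value above 0 is picked out, and the rate of chance does not apply. The remaining 8 are of 48 groups of the other enzymes. HSO sample 5 accounted for 4 of the 13, with ENO1 at 45.8 FPKM, ALDOA at 23.1, GPI at 13.8 and PFKP at 0.0590; its summed oocyte markers were also the highest, at 9227 FPKM. LLO sample 4 stood apart in GPI, at 14.3 FPKM, and in PFKP, at 0.140 FPKM. HK2 was at 2.34 FPKM in LLO sample 5 and ALDOA at 29.9 FPKM in LSO sample 1. PKM was at 18.3 FPKM in HLO sample 4 and at 21.7 FPKM in LSO sample 2. For PFKP, LMO sample 2 at 0.0669 FPKM, LSO sample 5 at 0.0222 and HLO sample 5 at 0.0201 stood apart from groups whose other samples were at or next to 0. The causes were not tested.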

How the results depend on the processing

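FPKM without counts limit these results, as counting error is unknown. The 4 or 5 samples of a group are portions of 1 pool of oocytes, which is assumed for the low fertility groups. The spread between goats is then not measured. PFKM and PFKP were too low to test. Of 1250 alternative values for single enzymes, 1174 were counted as unchanged, 64 changed sign, 7 lost and 5 gained significance. The 1250 include the F-tests over follicle sizes, the interaction and sample numbers. Those have no sign and were counted by their side of the threshold only. The 64 therefore all come from the high minus low differences, and their share among these differences is larger than among the 1250.

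Numbers of enzymes at an unadjusted p under 0.05 moved as follows. The share of all genes at that level was not computed under the alternatives, so these counts cannot be set against it. Sample weights also raised the number of all genes past the adjusted level, to 1011 in medium follicles and 691 over all sizes. In large follicles it was 1 with no filter and 1 with 1 fit over all samples. In medium follicles it was 1 with median-of-ratios scaling, 4 with sample weights and 1 with 1 fit, and 1 to 2 with a sample left out (1 without HMO sample 3 or 4 or LMO sample 1 or 4). In small follicles it was 0 with 1 fit and 0 to 2 with a sample left out (0 without HSO sample 1, 3 or 4, where HK2 no longer entered the test, and 2 without HSO sample 5). Over all sizes it was 5 with sample weights and 0 to 1 with a sample left out (1 without HSO sample 5 or LLO sample 2). Between follicle sizes it was 0 to 1 (0 without HSO sample 5, LLO sample 2 or LLO sample 5). For the interaction it was 2 with median-of-ratios scaling, 2 with sample weights and 1 to 2 with a sample left out (2 without HLO sample 5, LLO sample 2 or LLO sample 3). After adjustment, sample weights gave 2 enzymes in medium follicles and 1 over all sizes; the other alternatives gave 0 in the 6 comparisons.

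Numbers of all genes past the adjusted level moved too. With sample weights they were 2 in large and 1011 in medium follicles, 691 over all sizes, 231 for the interaction and 7704 for the sample number. With the replicate block, which treats equal sample numbers as pairs, they were 1 in large, 127 in medium and 0 in small follicles and 70 for the interaction. Of 14 pairs of samples of equal number and follicle size, 10 correlated above 0.1 (from -0.51 to 0.74). Of the 14, 7 had their best correlation with the sample of their own number. What the number stands for is not given in the labels. The main fits of population and follicle size did not use it to pair samples. With no filter the numbers were 0 in medium follicles and 0 over all sizes, with median-of-ratios scaling 13, 0 and, for the interaction, 2, with 1 fit 3 in medium and 0 in small follicles, and with a pseudocount of 0.1 it was 2 in small follicles. With a sample left out they ran from 0 to 1 in large (1 without LLO sample 3), 0 to 160 in medium (160 without HMO sample 2), 0 to 2 in small (2 without LSO sample 3), 0 to 2 over all sizes and 0 to 59 for the interaction (59 without HMO sample 2).

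The signs that changed belong to differences (high minus low) whose intervals span 0 in the main fit. In large follicles ENO1 was at 0.17 with a pseudocount of 0.1, ENO1 at 0.10 and GPI at 0.046 with median-of-ratios scaling, and HK1 at -0.12 and ALDOA at -0.13 with sample weights. In small follicles ENO1 was at -0.062 and PKM at -0.076 with sample weights, and ENO1 at -0.10 with the replicate block. Over all sizes PGK1 was at 0.050 and PKM at 0.075 with median-of-ratios scaling, and PKM at 0.0033 with the replicate block. HK1 was at -0.24 over all sizes with sample weights, with an unadjusted limma p of 0.0277. With a sample left out, large follicles gave -0.0052 to 0.23 for HK1, -0.29 to 0.31 for GPI, -0.33 to 0.45 for ALDOA and -0.53 to 0.43 for ENO1. Medium follicles gave -0.23 to 0.0014 for HK1, -0.22 to 0.040 for GPI and -0.50 to 0.069 for PGK1. Small follicles gave -0.060 to 0.20 for HK1, -0.066 to 1.07 for PGK1 and -0.63 to 0.80 for ENO1. All sizes gave -0.019 to 0.063 for HK1, -0.23 to 0.11 for PGK1 and -0.090 to 0.053 for PKM. The cause was not tested, beyond the samples named. Summing all rows that share a symbol was also intended and had no object, since 0 of the enzymes had several rows.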
